A study of Homo sapiens with 6 samples.

Results

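The 10 genes described here belong to the BCL2 family, which decides whether a cell keeps or opens its outer mitochondrial membrane. They were taken by gene name from the 58735 genes of the deposited tables: the pro-survival genes BCL2, BCL2L1 and MCL1, the BH3-only genes BCL2L11, PMAIP1, BMF, BBC3 and BID, and the effectors BAX and BAK1. All 10 were found, each in a single row, and all 10 passed the filter on low counts, as did 15881 genes in all. The cells were MDA-MB-231, an established human triple-negative breast cancer line of wild-type label, grown in 1 medium and stained with PKH26, a membrane dye that is diluted at each division. After 12 days the brightest 1% were sorted out as the slow-cycling fraction (SCC), and dimmer cells as the rapid-cycling fraction (RCC), which the protocol calls moderate and the sample label low in dye. Each group had 3 libraries described as biological replicates, with 17655855 to 27831824 summed counts per library. The series asks how gene expression differs between these sorted fractions, and AP-1 factors are named in its title. SCC replicate 1 stood apart by GC content: its median log2 deviation from the mean of the 6 libraries was -0.24 in the decile of tested genes lowest in GC and 0.40 in the highest, where the other libraries lay between -0.16 and 0.10. For several genes below, values are given with and without that library, and with an offset that takes a trend with GC out of each library.

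Pro-survival proteins of the family bind and hold back the others. BAX and BAK1, once active, oligomerise and permeabilise the outer mitochondrial membrane, which releases cytochrome c. BH3-only proteins are the sensors: of the sequence motifs shared in the family they carry only the short BH3 helix. They occupy the groove of the pro-survival proteins, and some of them also activate BAX and BAK1 directly. Their genes are switched on by different stresses, whereas BAX and BAK1 are kept at hand in most cells.

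In SCC, 2 of the 10 genes rose and 0 fell by the quasi-likelihood test of edgeR, with p adjusted over all genes (Benjamini-Hochberg) and a threshold of 0.05. Both were BH3-only genes: BMF, 3.68-fold higher, and PMAIP1, 1.40-fold higher. The 3 pro-survival genes, the 2 effectors and the BH3-only genes BBC3, BID and BCL2L11 did not pass the test. In these bulk libraries, more cells with a transcript and more transcript per cell cannot be told apart. Over all tested genes, 1.69% were called higher and 0.378% lower, or 268 and 60 genes, and the GC offset gave 522 and 245. DESeq2 also called 2 of the 10 higher and 0 lower, where it called 2.51% of its tested genes higher and 0.766% lower. Unadjusted p under 0.05 gave 4 of the 10 as higher, against 11.4% of all tested genes, and 0 as lower, against 8.27%. The median log2 fold change (SCC over RCC) was 0.11 over the 10 genes and 0.0029 over all tested genes.

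**Figure D1:**
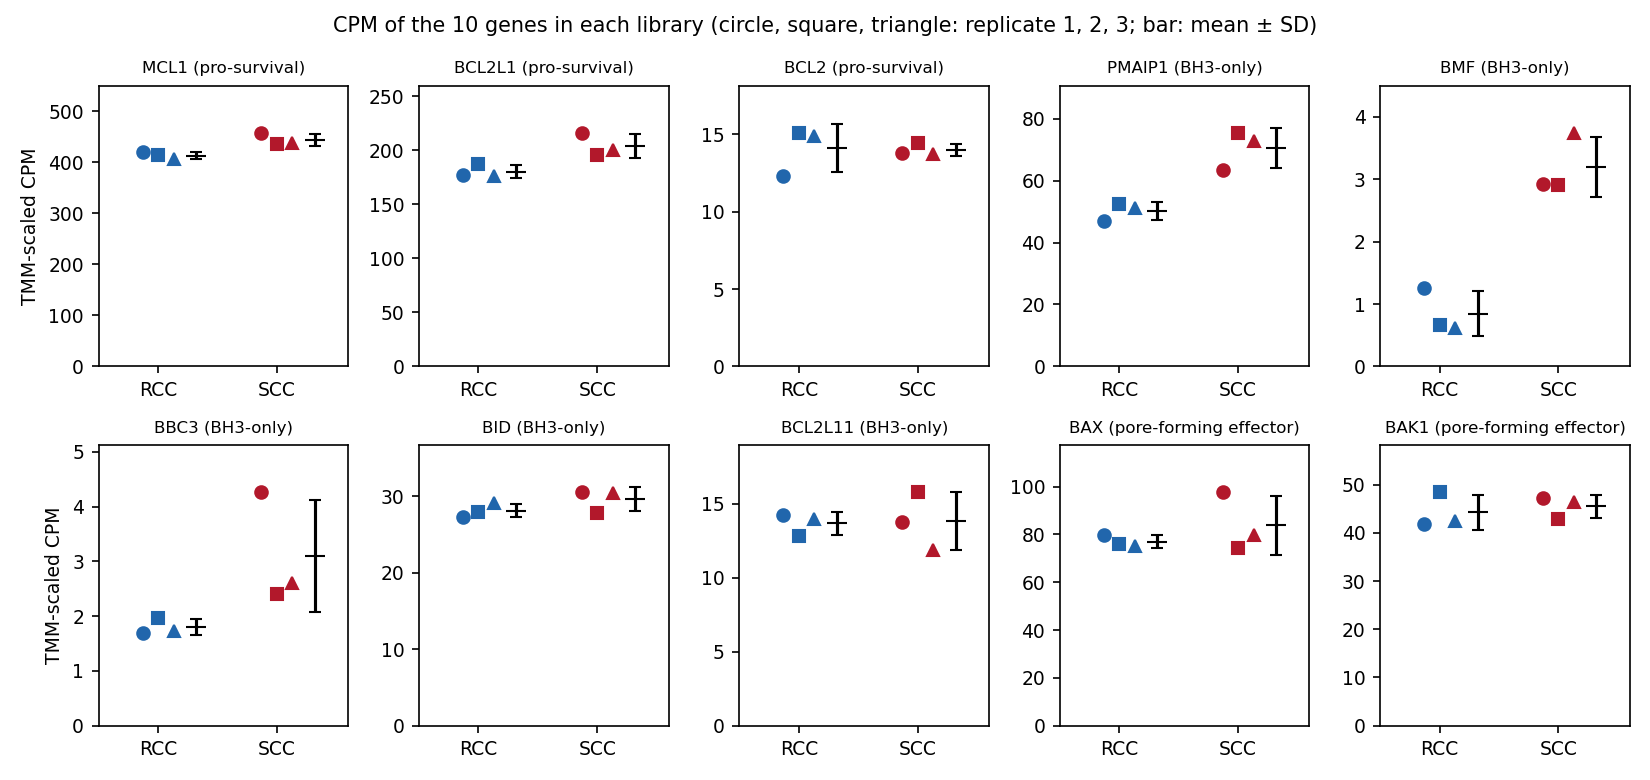
CPM (reads scaled to the TMM-adjusted library total, linear axis from 0) of the 10 genes in each of the 3 RCC (blue) and 3 SCC (red) libraries, with bars for the mean and SD. PMAIP1, BMF, BBC3, MCL1 and BCL2L1 lie higher in every SCC library than in any RCC library. BCL2, BCL2L11, BAX, BAK1 and BID overlap between the groups.

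The regulatory sequence just upstream of the start is shown for the 2 genes that rose and for BBC3, the only member with the AP-1 letters in this window. RefSeq promoters (GRCh38.p14) were found for 9 of the 10 genes, with 15 start sites in all, and MCL1 was not among them. Each line gives the 250 bases before the start, 5′ to 3′ on the gene's strand, with motif matches in capitals.
PMAIP1, chr18:59899746-59899995, plus strand: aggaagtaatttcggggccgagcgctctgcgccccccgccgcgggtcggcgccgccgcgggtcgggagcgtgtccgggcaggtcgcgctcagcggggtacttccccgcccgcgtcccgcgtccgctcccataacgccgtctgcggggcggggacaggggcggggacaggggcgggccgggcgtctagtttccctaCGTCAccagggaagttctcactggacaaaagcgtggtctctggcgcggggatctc
BMF, chr15:40108880-40109129, minus strand: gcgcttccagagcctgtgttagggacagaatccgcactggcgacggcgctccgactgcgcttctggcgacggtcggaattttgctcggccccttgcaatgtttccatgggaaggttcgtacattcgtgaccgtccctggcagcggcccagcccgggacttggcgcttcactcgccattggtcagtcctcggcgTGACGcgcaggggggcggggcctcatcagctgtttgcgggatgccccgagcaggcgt
BBC3, chr19:47232668-47232917, minus strand: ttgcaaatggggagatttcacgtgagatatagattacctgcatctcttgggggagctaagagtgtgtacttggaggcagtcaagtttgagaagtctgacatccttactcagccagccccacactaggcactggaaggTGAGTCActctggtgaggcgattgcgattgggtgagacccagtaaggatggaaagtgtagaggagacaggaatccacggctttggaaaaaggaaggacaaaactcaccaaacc
The capitals mark TGACG, the half-site of the cyclic AMP response element, in PMAIP1 (as its reverse complement) and BMF, and TGANTCA, the AP-1 site, in BBC3. The window of another BMF start site (chr15:40106967-40107216, not shown) held no motif match. On both strands, TGACG was present in 5 of the 15 member windows and in 21.2% of 35116 windows of the same length over all genes. It was looked for after these sequences had been seen, and it is contained in the full element TGACGTCA. TGANTCA was found in 1 of the 15 windows against 6.57% of all windows, and the FOXO letters TGTTTAC in 1, that of BCL2L11, against 2.98%. TGACGTCA (1.65% of all windows) and the NF-kB letters, GGG followed by any 2 bases and TTTCC (1.73%), were found in 0 of the 15. These are matches of letters in a short window and no measurement of binding.

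Among the BH3-only genes, PMAIP1 (ENSG00000141682, chromosome 18, 59899948 to 59904306, GRCh38) encodes NOXA, which binds MCL1 with preference. As CPM, which are reads scaled to the library total, it was at 63.3, 75.5 and 72.9 in SCC replicates 1 to 3 and at 46.9, 52.5 and 51.2 CPM in RCC replicates 1 to 3. Every SCC library lay above every RCC library, and the lowest SCC library was replicate 1. The log2 fold change was 0.49 (standard error 0.087, 95% interval 0.30 to 0.68, edgeR adjusted p 0.0161).

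PMAIP1 is poor in GC, at 37.2% of its longest transcript. Without that library the log2 fold change of PMAIP1 was 0.57 (edgeR adjusted p 7.4e-07), and after the GC offset it was 0.63 (7.3e-06). The call was lost in 7 of 16 alternatives, with the log2 fold change between 0.43 and 0.63 in all of them. It was lost when SCC replicate 3 (edgeR adjusted p 0.0852) or RCC replicate 1 (0.156), 2 (0.0816) or 3 (0.115) was left out. The call was kept without SCC replicate 2 (edgeR adjusted p 0.02875), and the cause of these losses was not tested. It was also lost in each fit of the FPKM values with limma (0.0684, 0.0741 and 0.229).

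BMF (ENSG00000104081, chromosome 15, 40087890 to 40108892) encodes a BH3-only protein that is held at the cytoskeleton and freed when cells lose anchorage. It had the largest fold change of the 10 genes and the lowest level. Its reads numbered 79, 57 and 79 in the SCC libraries and 29, 14 and 11 in the RCC libraries. This came to 2.93, 2.91 and 3.75 CPM in SCC replicates 1 to 3 against 1.26, 0.669 and 0.615 CPM in RCC replicates 1 to 3, so the groups did not overlap and RCC replicate 1 was the highest of its group. The log2 fold change was 1.88 (standard error 0.30, 95% interval 1.22 to 2.54, edgeR adjusted p 0.00906).

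The BMF fold change stayed between 1.70 and 2.29 on the log2 scale in the alternatives that used counts. The call was kept in 11 of 14 alternatives, among them the fit without SCC replicate 1 (1.94, edgeR adjusted p 0.000428) and the GC offset (1.79, 0.00233). It was lost without RCC replicate 2 (adjusted p 0.0641) and without RCC replicate 3 (0.0587). On log2(FPKM + 1) without a filter the value was 0.45 (limma adjusted p 0.303), a scale that understates changes of genes at such a low level. The antisense gene BMF-AS1 shares 461 exonic bases with BMF and had 0 reads in all libraries.

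BBC3 (ENSG00000105327, chromosome 19, 47220822 to 47232766) encodes PUMA, which binds all the pro-survival proteins. It was at 4.27, 2.40 and 2.61 CPM in SCC replicates 1 to 3 and at 1.70, 1.96 and 1.73 CPM in RCC. SCC replicate 1 was far above the other 2 libraries of its group, although these too lay above all RCC libraries. The log2 fold change of 0.80 (standard error 0.26, 95% interval 0.21 to 1.38) was not past the threshold (edgeR adjusted p 0.146). BBC3 is rich in GC, at 69.7%, the highest of the 10 genes. Without SCC replicate 1 the log2 fold change was 0.48 (edgeR adjusted p 0.381), and the GC offset gave 0.39 (0.344). It was called in 0 of 14 alternatives, with an adjusted p from 0.0525 to 0.604.

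**Figure D2:**
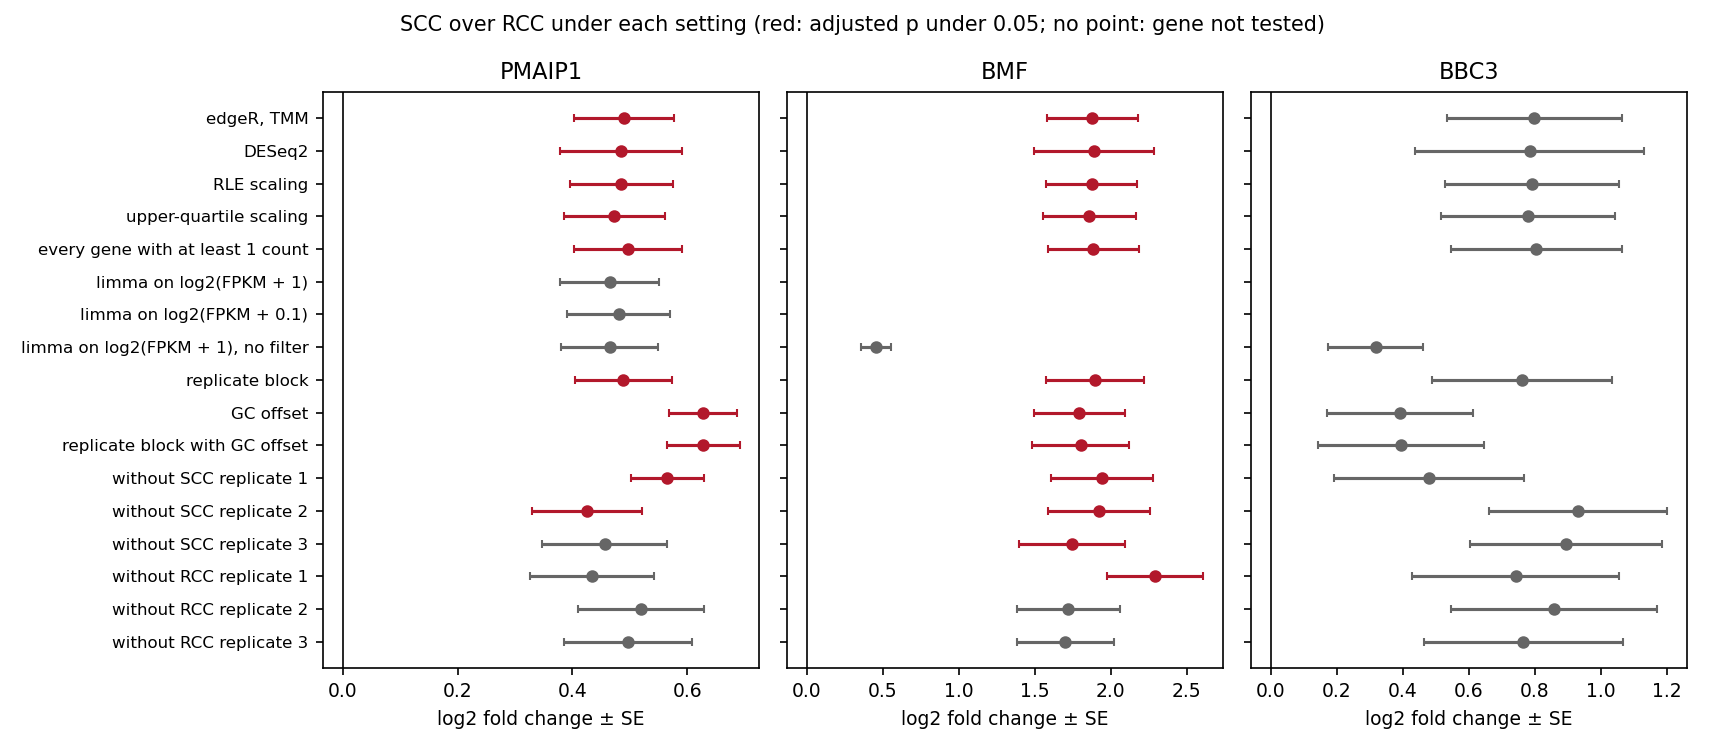
Log2 fold change of SCC over RCC with its standard error (horizontal axes, 1 scale per gene) for PMAIP1, BMF and BBC3 under each setting, red where the adjusted p was under 0.05. BBC3 moved from 0.80 to 0.48 without SCC replicate 1, while PMAIP1 moved from 0.49 to 0.57 and BMF from 1.88 to 1.94.

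The other BH3-only genes overlapped between the groups. BID (ENSG00000015475, chromosome 22), whose protein is cut by caspase-8 and so links death receptors to mitochondria, had a mean of 29.6 ± 1.56 CPM over the SCC libraries against 28.1 ± 0.879 over the RCC libraries (SD, n = 3 each). The log2 fold change of BID was 0.08 (95% interval -0.11 to 0.26). BCL2L11 (ENSG00000153094, chromosome 2) encodes BIM, a strong activator of BAX and BAK1 and a known FOXO target. It was at 13.8, 15.8 and 11.9 CPM in SCC replicates 1 to 3 and at 14.3, 12.8 and 14.0 CPM in RCC. Both the highest and the lowest BCL2L11 library belonged to SCC, and the log2 fold change was 0.01 (95% interval -0.26 to 0.29). MIR4435-2HG, a noncoding gene on the opposite strand with 1277 to 1889 reads per library, shares 727 exonic bases with BCL2L11, or 10.9% of them. The use of strand in counting is not given in the sources used here, so reads of the 2 genes could be mixed.

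MCL1 (ENSG00000143384, chromosome 1, 150574551 to 150579738) encodes a short-lived pro-survival protein that many cancer cells rely on. It was at 458, 437 and 439 CPM in SCC replicates 1 to 3 and at 420, 414 and 407 CPM in RCC. The groups did not overlap, but the difference was small: its log2 fold change was 0.10 (95% interval -0.03 to 0.23, edgeR adjusted p 0.345). The MCL1 value was 0.08 without SCC replicate 1 (edgeR adjusted p 0.309) and 0.15 with the GC offset (0.103). BCL2L1 (ENSG00000171552, chromosome 20, 31664452 to 31723989) encodes BCL-XL, the more stable counterpart, and a pro-death form by splicing that counts per gene do not separate. It was at 216, 195 and 200 CPM in SCC and at 177, 188 and 176 CPM in RCC. The groups did not overlap here either, with a log2 fold change of 0.18 (95% interval 0.03 to 0.33, edgeR adjusted p 0.194). The BCL2L1 value was 0.13 without SCC replicate 1 (edgeR adjusted p 0.0999) and 0.06 with the GC offset (0.561). The antisense gene ABALON, with 97 to 189 reads per library, shares 1424 exonic bases with BCL2L1, or 43.0% of them. As the use of strand is not given, reads of ABALON and BCL2L1 could be mixed too.

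BCL2 (ENSG00000171791, chromosome 18, 63123346 to 63320128), the founding member of the family, was at 13.8, 14.5 and 13.8 CPM in SCC and at 12.3, 15.1 and 14.9 CPM in RCC. The groups overlapped, with a log2 fold change of -0.01 (95% interval -0.26 to 0.24), and its sign turned in 5 of 16 alternatives. In all, 5 of the 10 genes (MCL1, BCL2L1, PMAIP1, BMF and BBC3) had groups that did not overlap, each with SCC higher. Over all tested genes this held for 27.8% in either direction and for 14.4% with SCC higher.

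The effectors showed no difference past the threshold. BAX (ENSG00000087088, chromosome 19, 48954815 to 48961798), a cytosolic protein that moves to mitochondria on activation, was at 97.8, 74.3 and 79.6 CPM in SCC replicates 1 to 3 and at 80.0, 75.8 and 75.2 CPM in RCC. Only SCC replicate 1 was above the RCC libraries, and BAX too is rich in GC, at 58.9%. The log2 fold change of 0.13 (95% interval -0.09 to 0.34, edgeR adjusted p 0.490) became -0.0005 without that library and -0.04 under the GC offset. BAK1 (ENSG00000030110, chromosome 6), which sits in the mitochondrial membrane, was at 47.3, 42.9 and 46.3 CPM in SCC and at 41.9, 48.5 and 42.4 CPM in RCC. The highest BAK1 library was RCC replicate 2, and the log2 fold change of 0.04 (95% interval -0.15 to 0.23) turned in sign in 3 of 16 alternatives. BAK1 has processed pseudogenes, between which near-identical reads can be split.

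**Figure D3:**
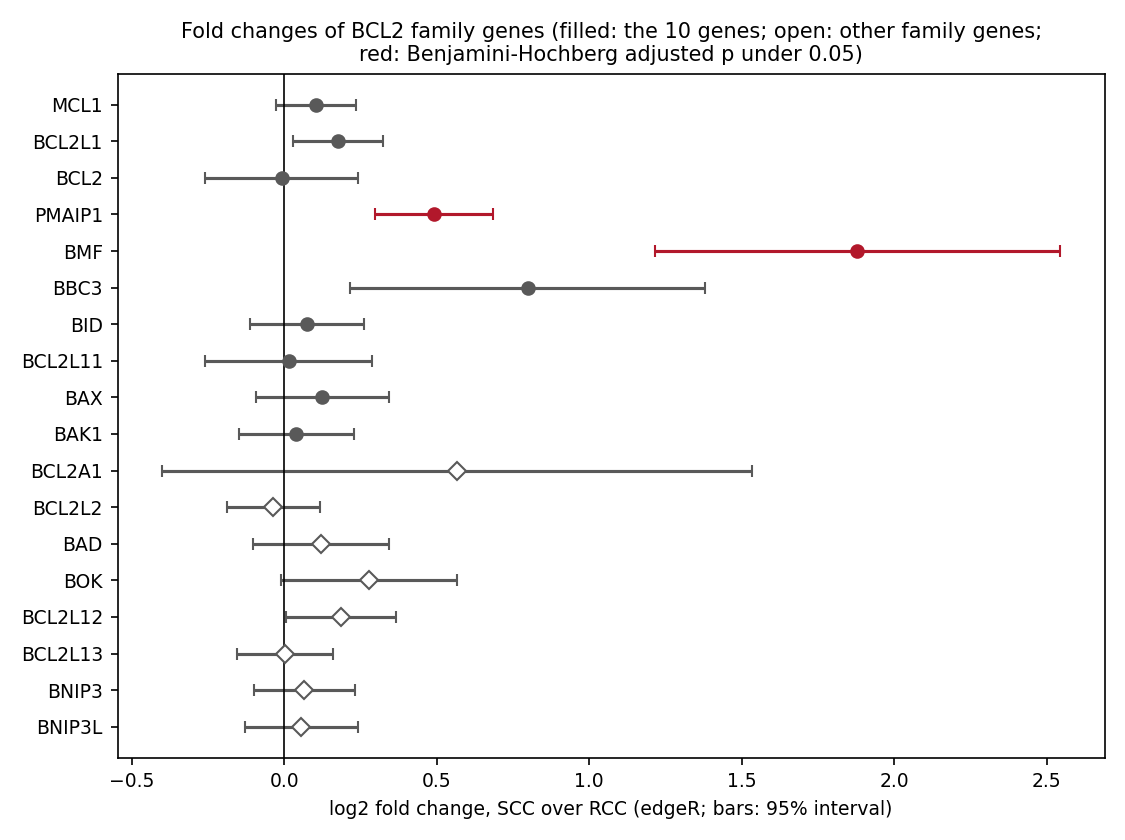
Log2 fold change of SCC over RCC with 95% intervals (horizontal axis) for the 10 genes (filled) and the 8 tested other genes of the BCL2 family (open). Only PMAIP1, at 0.49, and BMF, at 1.88, are drawn in red as past an adjusted p of 0.05.

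Levels of different genes were compared as FPKM, which scale the reads by gene length as well as by library total. Over the 6 libraries, MCL1 stood highest at a mean of 97.6 FPKM and BCL2L1 next at 57.6, and these 2 did not overlap with each other or with the following gene. BAX (30.9), PMAIP1 (26.9) and BAK1 (20.2) came next, and each overlapped its neighbour in this order in range. BID (6.45 FPKM) and BCL2L11 (2.06 FPKM) stood apart from both neighbours. BCL2 (1.19 FPKM), BBC3 (0.764) and BMF (0.369) were the lowest, again with ranges that overlapped from neighbour to neighbour.

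Within the 5 BH3-only genes chosen, PMAIP1 made up 75.3% ± 2.62 of the summed FPKM in SCC and 71.2% ± 1.27 in RCC (SD, n = 3), shares whose ranges overlapped. These sums leave out BAD, another BH3-only gene of the family, which averaged 24.0 FPKM in SCC and 22.3 FPKM in RCC, with a log2 fold change of 0.12 (edgeR adjusted p 0.520). BMF made up 1.37%, 1.23% and 1.61% in SCC and 0.771%, 0.379% and 0.351% in RCC, with no overlap. The summed FPKM of the 5 BH3-only genes was 38.5, 43.5 and 42.7 in SCC replicates 1 to 3 and 29.8, 32.5 and 32.1 in RCC. That of the pro-survival genes BCL2, BCL2L1 and MCL1 was 169, 159 and 161 in SCC and 149, 153 and 147 in RCC. It leaves out BCL2L2, another pro-survival gene of the family, which averaged 13.6 FPKM in SCC and 14.0 FPKM in RCC. The log2 fold change of BCL2L2 was -0.04 (edgeR adjusted p 0.796). Both sums were higher in every SCC library than in every RCC library, and the BH3-only sum by the larger proportion.

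The ratio of the BH3-only to the pro-survival sum was 0.228, 0.273 and 0.264 in SCC replicates 1 to 3 and 0.199, 0.212 and 0.218 in RCC replicates 1 to 3. The groups did not overlap, with SCC replicate 1 nearest to RCC, and the means differed by 0.0451. No test was made of this ratio, since its members were chosen with results known. Without PMAIP1 the difference was 0.0020, so it rested on that gene. PMAIP1 stood at 0.311 ± 0.0361 of the FPKM of MCL1, its preferred partner, in SCC and at 0.238 ± 0.0168 in RCC (SD, n = 3), without overlap. Binding is between the proteins, which were not measured, so these are ratios of RNA only. The ratio of BAX to BAK1 FPKM was 1.77, 1.48 and 1.47 in SCC and 1.63, 1.34 and 1.52 in RCC, and these overlapped.

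**Figure D4:**
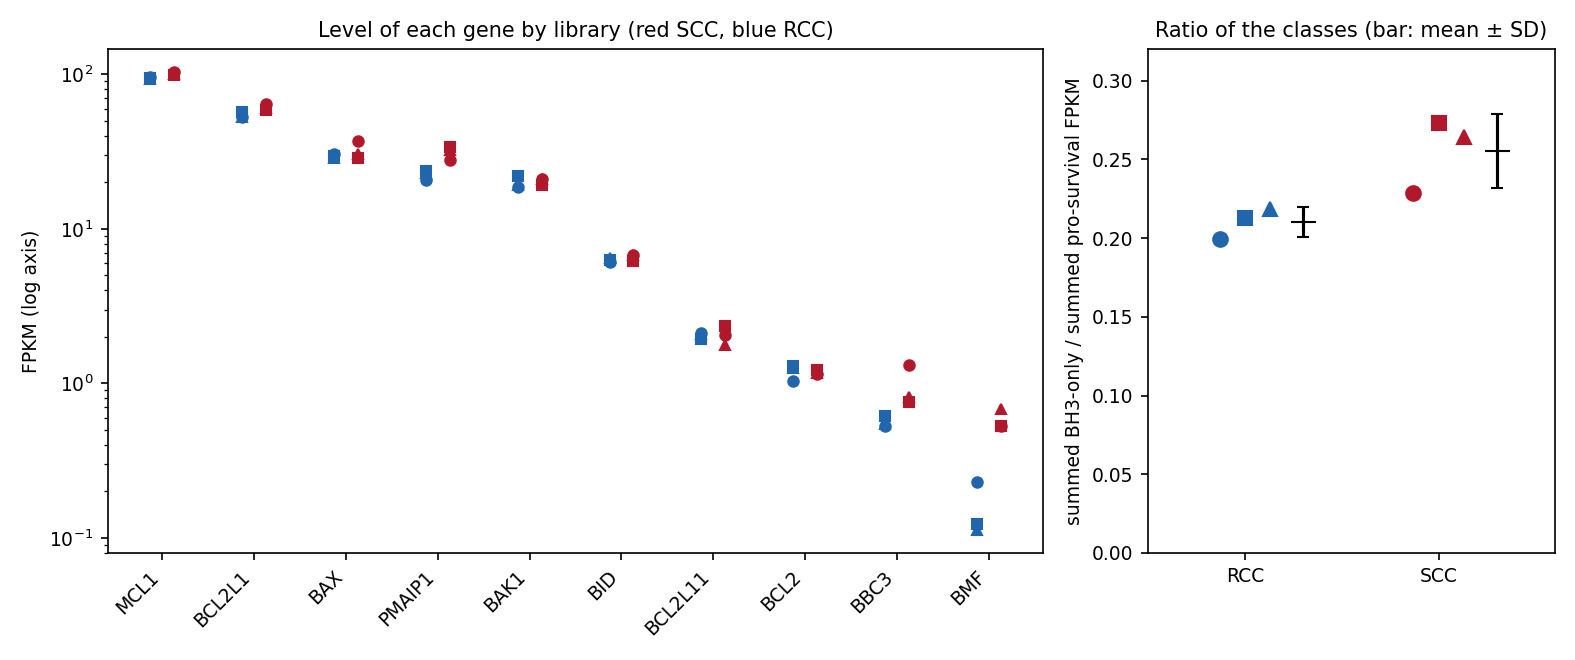
Left, FPKM of each of the 10 genes by library (log axis, red SCC and blue RCC), in order of the mean over the 6 libraries. Right, the ratio of summed BH3-only to summed pro-survival FPKM by library (linear axis from 0) with mean and SD, which lies between 0.228 and 0.273 in SCC and between 0.199 and 0.218 in RCC.

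Other lists of apoptosis genes, also chosen with earlier results known, held no call. Of 53 other genes in 5 lists, 45 were tested and 0 were called higher or lower by edgeR. Over all tested genes 1.69% were called higher and 0.378% lower, so 0 of 45 is near those shares. DESeq2 also called 0 genes of these lists, where it called 2.51% of its tested genes higher and 0.766% lower. An unadjusted p under 0.05 was reached by 7 of the 45 in the higher direction and 3 in the lower. Over all tested genes, 11.4% and 8.27% reached it. Of those 7, 5 were among the 12 tested death receptor and adaptor genes. The median log2 fold change of the 45 tested genes was 0.06. In 4 of the 16 alternatives 1 gene was called higher, 1 lower, or 1 in each direction. Among the other BCL2 family genes, 8 of 13 were tested, with a median of 0.09. BCL2L12, an atypical member, had the smallest p of these 8, with a log2 fold change of 0.19 (edgeR adjusted p 0.245). The BCL2L12 value was 0.11 without SCC replicate 1 (edgeR adjusted p 0.347) and 0.03 with the GC offset (0.837).

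For the 15 apoptosome and caspase genes, a list that also holds the cytochrome c gene CYCS, the median log2 fold change was -0.03. The inhibitor of apoptosis genes had a median of -0.07 over 6 of 7 genes. XIAP, which blocks caspases directly, had a log2 fold change of -0.23 (edgeR adjusted p 0.122), and it was called lower without SCC replicate 1 (-0.25, 0.00708). The XIAP value moved to -0.11 (0.402) under the GC offset.

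Death receptor and adaptor genes had a median of 0.20 over 12 of 14 genes. TRADD, the adaptor of the TNF receptor, had a log2 fold change of 0.47 (edgeR adjusted p 0.126) and was called higher without SCC replicate 2 (0.58, 0.0230) and with no filter on low counts (0.47, 0.00254). TRADD stood at 0.28 without SCC replicate 1 (0.0956) and at 0.18 under the GC offset (0.196). The 4 genes of MCL1 protein turnover had a median of 0.03, and HUWE1, the ubiquitin ligase that marks MCL1, had the smallest p (log2 fold change 0.12, edgeR adjusted p 0.469).

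Of 14 transcription factor genes known to act on BH3-only genes, 3 rose in SCC and 0 fell, where 1.69% and 0.378% of all tested genes did. These 14 genes were chosen with earlier results of these data known, so the counts are a description and no test of the list. DESeq2 called 0 lower as well, and an unadjusted p under 0.05 was reached by 8 in the higher direction and 1 in the lower (11.4% and 8.27% of all tested genes). Their median log2 fold change was 0.30. ATF3, a stress-induced factor of the ATF/CREB family, had 23.6 ± 1.70 CPM (SD, n = 3) in SCC against 3.32 ± 0.731 in RCC, a log2 fold change of 2.81 (edgeR adjusted p 2.3e-06). JUN, a subunit of AP-1, had 331 ± 47.1 against 191 ± 8.56 CPM, a log2 fold change of 0.80 (edgeR adjusted p 0.00109). The JUN value was 0.67 without SCC replicate 1 (edgeR adjusted p 7.9e-11) and 0.68 with the GC offset (7.8e-07). ATF4, which drives the integrated stress response and acts on PMAIP1 in other settings, had 376 ± 9.56 against 312 ± 2.53 CPM (SD, n = 3), a log2 fold change of 0.27 (edgeR adjusted p 0.0459). The ATF4 call was lost in 12 of 16 alternatives. These included the GC offset (log2 fold change 0.16, edgeR adjusted p 0.111) and the fits that left out SCC replicate 3 (0.161) or any 1 of the RCC libraries (0.204 to 0.234). Across the alternatives, 1 to 7 of the 14 genes were called higher, and 1 was called lower without SCC replicate 1 and with the replicate block and GC offset together. The 3 forkhead genes of the list, named after their values were seen, did not pass the threshold. The log2 fold change was 0.16 for FOXO1 (edgeR adjusted p 0.477) and 0.12 for FOXO3 (0.514), whereas FOXO4 had 0.65 (0.0886) with groups that did not overlap.

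By profile over the 6 libraries, the tested genes nearest to PMAIP1 were AC018904.1 and DDIT3, with root mean square differences of centred log2 CPM of 0.0483 and 0.0546. DDIT3, which encodes the stress factor CHOP, had 6.20 ± 0.582 CPM in SCC against 4.16 ± 0.253 in RCC (SD, n = 3), a log2 fold change of 0.57 (edgeR adjusted p 0.0873). The genes nearest to BMF were KRT4, a keratin (0.182), and GPBAR1, a bile acid receptor (0.240), both at under 2 CPM. With 6 libraries and 15881 genes such a likeness is a description.

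The cells carried the markers of the line: VIM averaged 795 CPM in SCC and 776 CPM in RCC, and CD44, KRT8 and KRT18 were also present. CDH1, ESR1 and PGR were at under 0.05 FPKM on average, and ERBB2 was at 8.25 and 7.23 FPKM. Leukocyte markers (6 genes) summed to 0.971 to 3.49 CPM in SCC and 0.908 to 1.06 CPM in RCC, and endothelial and erythroid markers (5 genes) to 3.41 to 3.78 and 3.25 to 4.03 CPM. The highest leukocyte sum was in SCC replicate 1, where PTPRC had 53 reads against 3 to 15 in the other libraries. ITGAM was also highest there, with 26, 7 and 7 reads in SCC against 3, 3 and 2 in RCC, and did not overlap between the groups in CPM. None of the 6 leukocyte markers was at 0 in all libraries, and CD3E had a single read, in SCC replicate 1. The part of these reads in the results above was not tested, nor was that of the mitochondrial share of counts, which was 4.45% to 4.75% in SCC and 3.77% to 3.95% in RCC.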

How the data were processed

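RNA-seq was analysed from 6 libraries of MDA-MB-231 cells, 3 SCC and 3 RCC, grouped by their titles. The deposited values are whole-number counts per gene and FPKM per gene. The submitters' processing notes name HISAT2 2.0.5 and featureCounts 1.5.0-p3; their parameters, the genome build, the use of strand and the making of the FPKM are not given in the sources used here. Each deposited FPKM value equalled the count over gene length and over 1 constant per library, 0.983 to 1.02 times its summed count. All 58735 gene IDs and positions were those of GENCODE 29 on GRCh38. For 27 genes a date stood in place of the symbol, which was restored from the ID. No pair of libraries of a group agreed within sampling noise (chi-square per degree of freedom 3.17 to 24.6).

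Counts were tested with edgeR 4.0.16 (R 4.3.3): filterByExpr on the groups (min.count 10), TMM, glmQLFit on group, and a two-sided quasi-likelihood test with Benjamini-Hochberg adjustment over all 15881 tested genes, called at an adjusted p under 0.05. CPM use TMM-scaled totals. Intervals of 95% are from the fitted standard error. P-values set the difference between SCC and RCC against the spread between these libraries of the same cell line. Alternatives used DESeq2 1.42.0, RLE and upper-quartile scaling, no count filter, limma 3.58.1 on log2(FPKM + 1) or log2(FPKM + 0.1), keeping genes that reached an FPKM of 1 in 3 libraries, or all, the replicate number as a block, a GC offset (lowess, span 0.3, GC of the longest transcript), and each library left out. The fits were tested on simulated data. The 10 genes and all lists were chosen with earlier results of these data known. Named were the 10 genes, called genes of each list or its smallest p, and for each called member the 2 genes nearest in profile. Of the 2 rows named DIABLO the more abundant was used. Results for some genes of the lists are not reported here.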

Additional observations from a re-analysis of the deposited data

How the results depend on the processing

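Over all genes, 268 were called higher and 60 lower. Calls for higher and lower genes numbered 995 and 315 with no filter on low counts, 130 and 36 with limma on log2(FPKM + 1), 117 and 34 with log2(FPKM + 0.1), 48 and 1 with log2(FPKM + 1) without a filter, and 522 and 245 with the GC offset. DESeq2 called 120 lower. Leaving out each library gave 99 to 642 higher and 8 to 343 lower genes. Of the 10 genes, 2 were called higher, 0 in each limma fit (BMF and BBC3 did not pass the FPKM filter in the 2 filtered fits), and 0 to 2 without each library: 1 without SCC replicate 3 or RCC replicate 1, and 0 without RCC replicate 2 or 3. None of the 10 was called lower in any of the 16 alternatives.

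Same-numbered libraries did not deviate together (correlations -0.00912, 0.0249 and -0.0788, and 1 of the 3 SCC libraries correlated best with its own number). The numbers were not taken as pairs. With 3 libraries per group and SCC replicate 1 apart by GC content, these correlations could miss a pairing. With the replicate block 106 genes were lower; with the block and the GC offset 639 were higher and 449 lower. The block changed no call among the 10 genes.

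Signs turned for genes that were not called. Leaving out each library gave -0.1097 to 0.0403 for BCL2, -0.102 to 0.1004 for BCL2L11, -0.0005 to 0.1903 for BAX and -0.0089 to 0.1064 for BAK1. BCL2 was at 0.0309 with the GC offset, 0.0359 with the block and GC offset, 0.0058 without SCC replicate 1, and 0.0403 and 0.0227 without RCC replicates 2 and 3. BCL2L11 was at -0.0034 with upper-quartile scaling, -0.102 without SCC replicate 2 and -0.0361 without RCC replicate 2. BAX was at -0.0356 with the GC offset, -0.036 with the block and GC offset, and -0.0005 without SCC replicate 1. BAK1 was at -0.112 with the GC offset, -0.1081 with the block and GC offset, and -0.0089 without RCC replicate 1. The BH3-only to pro-survival difference of 0.0451 was 0.0020 without PMAIP1, 0.1028 without MCL1, 0.4418 as a difference of mean log2(FPKM + 0.1), and 0.0363 to 0.0585 without each library. The cause of these changes was not tested. BMF had 11 to 79 reads per library.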
